A study of Mus musculus with 56 samples.

Results

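Small RNA of mouse liver was compared across birth, with 2 wild-type libraries labelled P1 (the newborn) set against 2 labelled E18 (the late fetus). These 4 libraries were chosen by the stage in their labels, out of 42 small RNA libraries and 56 samples in the whole series. The series follows liver from 14 wild-type embryos and mice and from mice in which miR-122 was removed, and the labels of the 4 livers used here name no floxed allele and no vector. All 4 came from the 129Sv/J strain, and the labels give neither sex nor litter. The libraries of a stage are named replicate A and replicate B, and since nothing says how the animals were related, the tests measure only the spread between these samples, which may be partly technical. The age of the P1 livers is itself in doubt, because the study also lists the same values under an age of 1 week, with the letters A and B exchanged. Nearly all values of the P8 libraries, a later stage used below, are likewise listed under an age of 2 weeks. The labels P1 and P8 are used throughout.

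A microRNA is a short RNA cut from a hairpin, and it guides Argonaute proteins to messenger RNAs that pair with its seed, the bases near its 5′ end. Hairpins often lie in clusters that are transcribed together, and microRNAs with the same seed form a family with shared predicted targets. In liver, miR-122 marks hepatocytes and comes to dominate the microRNA pool, while fetal liver is also a site of blood formation, rich in erythroid microRNAs. The imprinted Dlk1-Dio3 region holds a large fetal microRNA cluster that is expressed from the maternal chromosome, and let-7 is the classic family that accumulates as tissues mature.

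The mature sequences of the microRNAs on which the comparison turns are shown here 5′ to 3′, from RefSeq on build GRCm38.p6, with the seed (bases 2 to 8) in capitals. RefSeq held a hairpin for 240 of the 319 microRNAs tested (75.2%). The deposited rows are named for hairpins, so the arm that gave the reads is not recorded, and one mature product of each hairpin is shown. The first 4 were higher in both P1 libraries or belong to the same family as one that was, and let-7f and let-7c share the seed GAGGUAG.
let-7f-5p (chr13:48537889-48537910, minus strand): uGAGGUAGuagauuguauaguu
let-7c-5p (chr16:77599672-77599693, plus strand): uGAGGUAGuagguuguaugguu
miR-222-3p (chrX:19146901-19146923, minus strand): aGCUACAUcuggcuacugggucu
miR-423-5p (chr11:77078122-77078144, minus strand, within Nsrp1): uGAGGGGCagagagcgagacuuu

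The next 6 were lower in both P1 libraries. They include the muscle microRNAs miR-206 and miR-133b, which lie together within the noncoding gene Lincmd1, and the blood cell microRNAs miR-223 and miR-181b.
miR-706 (chr6:120034290-120034311, minus strand, within Wnk1): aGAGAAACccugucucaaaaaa
miR-1198-5p (chrX:7807142-7807163, plus strand, within Gripap1): uAUGUGUUccuggcuggcuugg
miR-206-3p (chr1:20679055-20679076, plus strand): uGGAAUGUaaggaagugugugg
miR-133b-3p (chr1:20682834-20682855, plus strand): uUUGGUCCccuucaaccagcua
miR-223-3p (chrX:96242884-96242905, plus strand): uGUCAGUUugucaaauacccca
miR-181b-5p (chr2:38853845-38853868, plus strand): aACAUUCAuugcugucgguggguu

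The last 6 are abundant microRNAs. The P1 libraries differed from each other in all of them but miR-376b. The neighbours miR-144 and miR-451a are erythroid, and the others lie in the Dlk1-Dio3 cluster, where the seeds of miR-376a and miR-376b are not the same.
miR-144-3p (chr11:78073047-78073066, plus strand): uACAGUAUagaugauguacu
miR-451a (chr11:78073186-78073207, plus strand): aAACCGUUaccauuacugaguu
miR-376a-3p (chr12:109723824-109723844, plus strand): aUCGUAGAggaaaauccacgu
miR-376b-3p (chr12:109723508-109723528, plus strand): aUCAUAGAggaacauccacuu
miR-127-3p (chr12:109592888-109592909, plus strand, within Rtl1): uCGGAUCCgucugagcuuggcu
miR-136-5p (chr12:109595331-109595352, plus strand, within Rtl1): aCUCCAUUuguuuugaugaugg

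The 4 libraries were unequal in depth. E18 replicates A and B held 622242 and 792786 microRNA reads, and P1 replicates A and B held 414785 and 259082. Without miR-122 the reads left were 452704 and 462204 at E18 but 236516 and 73356 at P1, so that a microRNA with no read may have had a true level of up to 6.63, 6.49, 12.7 and 40.9 RPM respectively, the worth of 3 reads on a scale that sets the reads of every library to the same total. These limits cover counting error only. All levels below are RPM of reads other than miR-122, unless a share of all reads is named.

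The P1 libraries also resembled each other less than the E18 libraries did. Over the 319 microRNAs tested, the median absolute difference between the E18 libraries was 0.37 on the log2(RPM + 1) scale, and 85.9% of the microRNAs lay within 1 log2 unit. Between the P1 libraries the median difference was 1.18, and 40.1% lay within 1 unit. P1 replicate A stood nearer to the E18 libraries, with medians of 0.53 and 0.51, than to the other P1 library. P1 replicate B was nearest to replicate B of P8, a later stage, with a median of 0.72. These held the fewest reads other than miR-122 among the E18, P1 and P8 libraries, 73356 and 61263. Whether depth bears on their nearness was not tested. Every comparison below therefore gives both P1 libraries.

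miR-122, the microRNA that marks hepatocytes, took a larger part of the reads in both P1 libraries than in either E18 library. It made up 27.2% and 41.7% of all listed reads in E18 replicates A and B, and 43.0% and 71.7% in P1 replicates A and B. The 95% Wilson intervals were 27.1 to 27.4%, 41.6 to 41.8%, 42.8 to 43.1% and 71.5 to 71.9%, and they cover read counting only. The stages did not overlap, but P1 replicate A lay just above E18 replicate B, and the P1 libraries were further apart than the stage means. The mean was 34.5% ± 10.2 (SD, n = 2) at E18 and 57.3% ± 20.3 (n = 2) at P1, 1.66 times as high. The exact two-sided permutation test gave p = 0.333, which is the smallest p that 2 libraries against 2 can give.

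Counted per read of any other microRNA, the ratio of miR-122 was 0.374 and 0.715 at E18 and 0.754 and 2.53 at P1. miR-122, the defining liver marker, was thus abundant in all 4 libraries. Among the other wild-type livers, miR-122 stood at 0.425% and 0.114% at E14 and at 66.5% and 82.9% at P8.

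**Figure D1:**
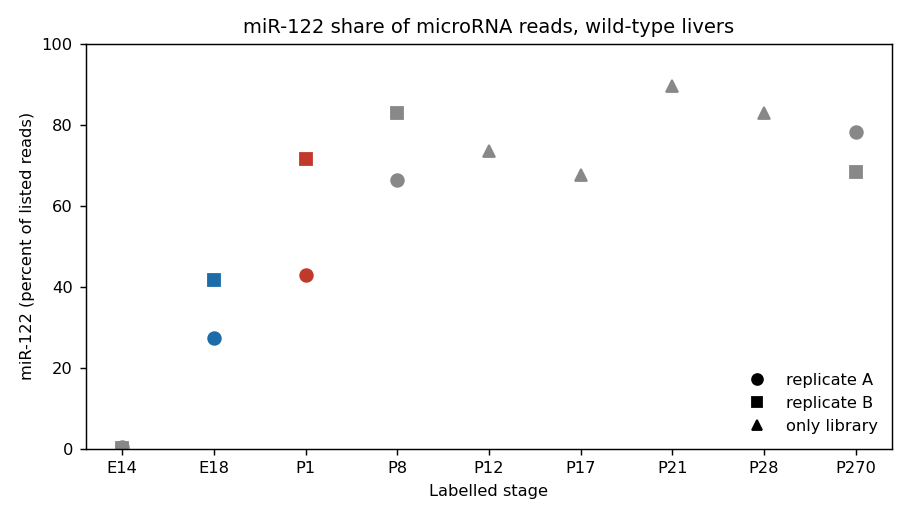
miR-122 as a percent of all listed microRNA reads (vertical axis) in each of the 14 wild-type libraries, by labelled stage (horizontal axis, not to scale), 1 point per library. The E18 points (blue) lie at 27.2% and 41.7%, and the P1 points (red) at 43.0% and 71.7%.

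No microRNA passed a test across birth. miR-122 was left out of the fit, and limma with Benjamini-Hochberg adjustment called 0 of the 319 others, with a smallest adjusted p of 0.907, and 8 had an unadjusted p under 0.05, of which 2 (0.627%) were higher and 6 (1.88%) lower at P1. The median log2 fold change of all tested microRNAs was -0.42, and 96 of the 319 were positive. This centre depends on the scaling, since it was -1.11 when RPM were taken over all reads and -0.02 when each library was centred on its median.

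Counts of microRNAs whose stages did not overlap describe the same data without a test. Both P1 libraries lay above both E18 libraries for 26 of 319 microRNAs (8.15%) and below both for 94 (29.5%). Taken over all reads the shares were 3.45% and 46.4%, and with libraries centred on their median they were 14.4% and 18.2%. For a further 100 microRNAs the P1 libraries lay outside the E18 values on opposite sides, 72 of them with replicate A above and replicate B below. Counted without regard to the other P1 library, replicate A was above both E18 libraries for 33.5% of the microRNAs and below both for 40.4%. Replicate B, counted likewise, was above both for 23.8% and below both for 67.7%.

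**Figure D2:**
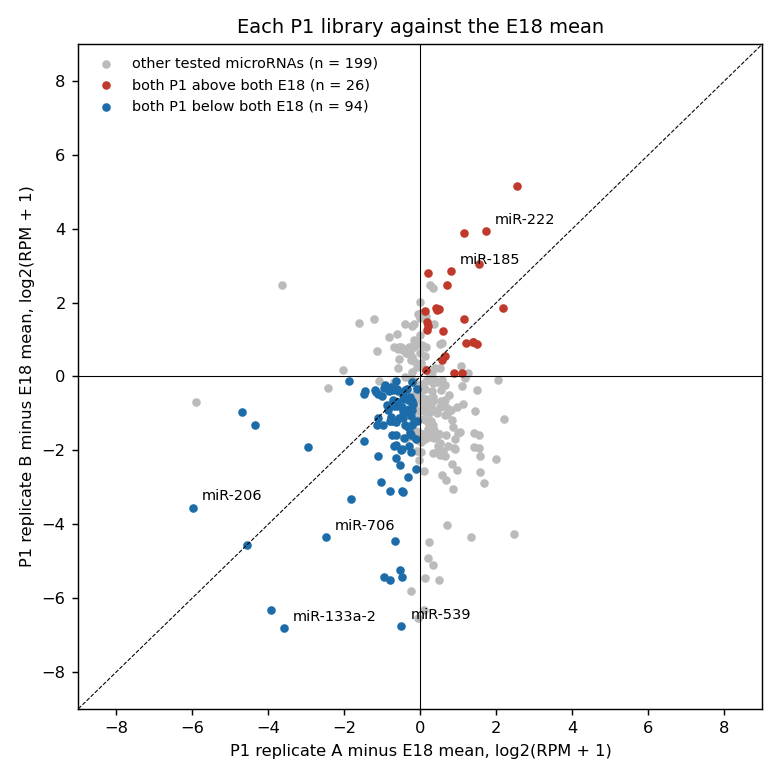
Difference of P1 replicate A (horizontal axis) and of P1 replicate B (vertical axis) from the E18 mean, in log2(RPM + 1), for the 319 microRNAs tested, 1 point each. Red points are the 26 with both P1 libraries above both E18 libraries and blue points the 94 with both below. The dashed line marks equal differences, and many points lie below the horizontal axis while scattered on both sides of the vertical one.

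Of the microRNAs higher in both P1 libraries that averaged at least 100 RPM at a stage, miR-222 had the largest log2 fold change. miR-222, which targets the cell cycle inhibitor p27, stood at 35.3 and 45.5 RPM in the E18 libraries and at 135 and 627 RPM in the P1 libraries. Every P1 value was above every E18 value, with P1 replicate B the highest. The log2 fold change was 2.83 (SE 1.07), with an unadjusted p of 0.0333 and an adjusted p of 0.907 in limma. miR-222 also varied widely between libraries of other stages, at 323.9 and 32.7 RPM in E14 replicates A and B. In P8 replicates A and B it stood at 56.4 and 342.9 RPM. miR-221, which precedes it in number, was not higher in both P1 libraries. It stood at 759.8 and 322.3 RPM at E18 and at 1463 and 81.9 RPM at P1. Its log2 fold change was -0.51 (SE 1.29).

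miR-185 was the next abundant microRNA of this kind. It stood at 747 and 1495 RPM at E18 and at 1848 and 7579 RPM at P1, with a log2 fold change of 1.82 (SE 0.85). P1 replicate A was only slightly above E18 replicate B, while P1 replicate B was far above all the others.

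Hairpins of the repetitive miR-466 cluster were also among the 10 of largest difference. miR-466k stood at 24.3 and 8.75 RPM at E18 and at 33.8 and 232 RPM at P1, and miR-466i at 24.3 and 38.9 RPM against 50.7 and 177 RPM. These hairpins have near-identical copies, so the placing of their reads is uncertain. In both, the gap rests mainly on P1 replicate B.

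The rest of the 10 differed less, and they were more abundant than miR-222 and the miR-466 hairpins though not all more than miR-185. The neuroendocrine miR-7a-2 stood at 417 and 567 RPM at E18 and at 660 and 1690 RPM at P1. The Hox cluster microRNA miR-10a stood at 998 and 958 RPM at E18 and at 1065 and 3353 RPM at P1. In both, P1 replicate A sat close above the E18 values.

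miR-423 was the member in which the P1 libraries were most alike, at 678 and 933 RPM at E18 and 1201 and 1854 RPM at P1, a log2 fold change of 0.91 (SE 0.55). miR-511, which lies in the gene of the macrophage mannose receptor, stood at 349 and 372 RPM at E18 and at 410 and 1009 RPM at P1. The let-7f hairpins complete the 10 and are given with their family below.

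**Figure D3:**
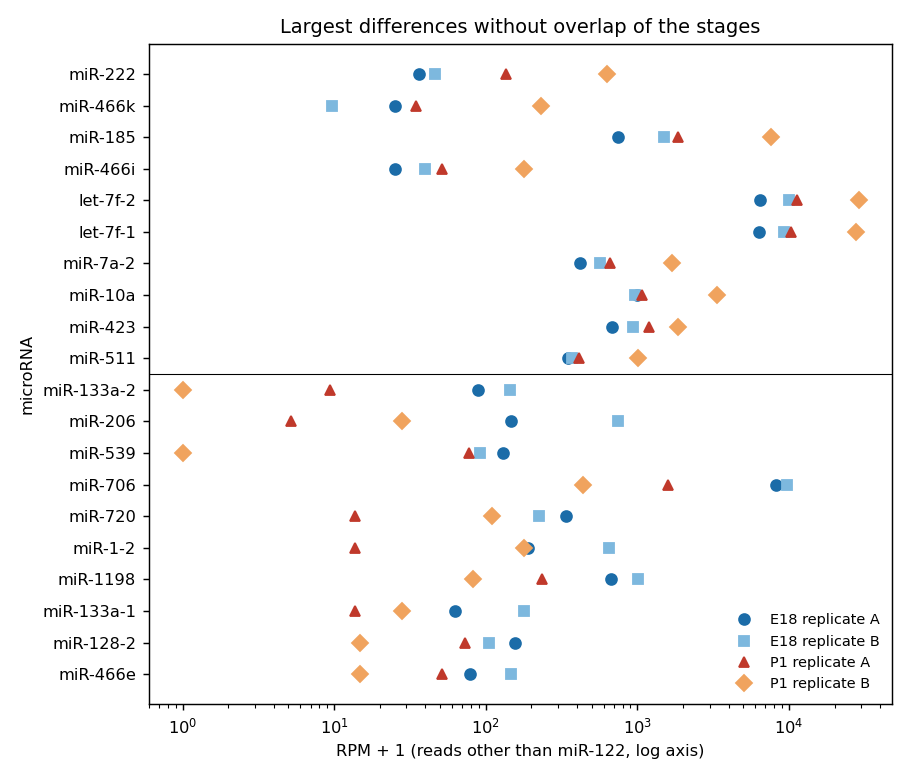
Level of 20 microRNAs in each of the 4 libraries, as RPM + 1 of reads other than miR-122 on a log axis. The upper 10 had the largest positive and the lower 10 the largest negative log2 fold change among microRNAs whose stages did not overlap and whose mean reached 100 RPM at a stage, as with miR-222 at 35.3 and 45.5 RPM against 135 and 627 RPM.

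miR-706 had the lowest p of all tested microRNAs and the largest difference among abundant ones. It stood at 8175 and 9727 RPM in the E18 libraries and at 1594 and 436 RPM in the P1 libraries. The E18 values were close together, and both P1 values were far below them. The log2 fold change was -3.42 (SE 0.94), with an unadjusted p of 0.00819 and an adjusted p of 0.907 in limma.

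miR-1198 behaved likewise, at 667.04 and 1015 RPM at E18 and 233 and 81.9 RPM at P1, with a log2 fold change of -2.57 (SE 0.89). miR-720, an entry whose sequence is known to match transfer RNA, stood at 336 and 225 RPM at E18 and at 12.6 and 109 RPM at P1. In each of these the stages were well separated, although the lower P1 library was replicate B for miR-1198 and replicate A for miR-720.

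Outside birth, miR-706 and miR-1198 varied widely between libraries of a single stage. miR-706 stood at 19081 and 10.1 RPM in E14 replicates A and B and at 179894 and 483.3 RPM in P270 replicates A and B. miR-1198 stood at 5477 and 45.4 RPM at E14 and at 48845 and 62.3 RPM at P270. The high libraries, together with that of P28 at 131882 and 36509 RPM, are the 3 whose listed RPM fall short of the total of the others, which the E18 and P1 libraries reach. Whether this bears on the difference across birth was not tested.

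Others among the 10 lowest rested on few reads at P1. The brain-enriched miR-128-2 stood at 154.6 and 104 RPM at E18 and at 71.9 and 13.8 RPM at P1, where replicate B held 1 read. miR-466e stood at 77.4 and 144.9 RPM at E18 and at 50.7 and 13.8 RPM at P1. Pooled over the libraries of a stage, miR-128-2 was 2.22 times as high at E18 (95% exact interval 1.35 to 3.88) and miR-466e 2.66 times (1.49 to 5.16), intervals that cover read counting only. miR-539, of the Dlk1-Dio3 cluster, stood at 128 and 90.9 RPM at E18 and at 76.1 RPM and 0 in the P1 libraries, and was 1.88 times as high at E18 when pooled (1.13 to 3.30).

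The muscle microRNAs were the list with the lowest median, although they made up little of the RNA. These 9 hairpins are made in skeletal and heart muscle and are not liver microRNAs. Their sum was 0.102% and 0.283% of reads other than miR-122 in the E18 libraries and 0.0228% and 0.0600% in the P1 libraries, with the exact permutation test at its smallest p of 0.333. Of 7 members tested, 6 were lower in both P1 libraries, against 29.5% of all tested microRNAs, and the median log2 fold change was -3.30 against -0.42, although 6 of the 7 had at most 3 reads in a P1 library. With libraries centred on their median, 4 of the 7 were lower in both, against 18.2% of all, and over all reads all 7 were, against 46.4%.

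miR-206, made in skeletal muscle, belongs to this list. It stood at 145.8 and 746 RPM in the E18 libraries and at 4.21 and 27.2 RPM in the P1 libraries, where it was seen in 1 and 2 reads. The pooled level was 46.4 times as high at E18 (95% exact interval 15.8 to 226). miR-133a-2 stood at 88.4 and 142.9 RPM at E18 and at 8.42 RPM and 0 at P1, and pooled it was 18.0 times as high at E18 (4.85 to 150). These intervals cover read counting only, not the spread between libraries. The stages were apart in both microRNAs.

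miR-133a-1 stood at 61.9 and 177 RPM at E18 and at 12.6 and 27.2 RPM at P1. The striated muscle miR-1-2 stood at 188 and 651 RPM at E18 and at 12.6 and 177 RPM at P1, so that P1 replicate B came close to E18 replicate A. Its copy miR-1-1, at 150 and 640 RPM against 4.21 and 191 RPM, overlapped between the stages. miR-499, which lies in a myosin gene, stood at 340 and 322.3 RPM at E18 and at 182 and 177 RPM at P1. In a bulk sample, fewer cells of a type and less RNA per cell cannot be told apart. Whether muscle tissue entered the E18 samples was not tested.

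The let-7 family was higher on average at P1, and mainly in P1 replicate B. Its 11 hairpins are known for restraining growth genes in maturing tissues. Together they made up 6.23% and 10.0% of reads other than miR-122 in the E18 libraries and 8.76% and 20.6% in the P1 libraries. P1 replicate A lay between the E18 libraries and replicate B above both, and the exact permutation test gave p = 0.667. By letter each P1 library was above its E18 library, but with the P1 letters exchanged, as in the other listing of the study, replicate A would not be. All 11 members had a positive log2 fold change, with a median of 0.81, but over all reads 7 were positive and 4 negative. P1 replicate B was above both E18 libraries for 10 of the 11, and replicate A for 3, against 23.8% and 33.5% of all tested.

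let-7f-1 and let-7f-2, which give the same mature RNA, were the members higher in both P1 libraries, 2 of 11 against 8.15% of all tested. let-7f-2 stood at 6483 and 10080 RPM at E18 and at 11255 and 28832 RPM at P1, with a log2 fold change of 1.16 (SE 0.61). let-7f-1 gave near-equal values of 6364, 9284, 10278 and 27823 RPM. The most abundant member, let-7a-2, stood at 16821 and 29755 RPM at E18 and at 24937 and 69469 RPM at P1.

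let-7g did not share this pattern, at 10026 and 12925 RPM at E18 and at 14012 and 12296 RPM at P1. Its log2 fold change was 0.21 (SE 0.54), and over all reads it was -0.49.

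Among the E18 and P1 libraries, the Dlk1-Dio3 cluster was the largest list by reads in all but P1 replicate B, where let-7 was slightly larger. Its 53 hairpins made up 27.2% and 23.4% of reads other than miR-122 in the E18 libraries and 21.1% and 20.01% in the P1 libraries. Both P1 values were below both E18 values, with the exact permutation test at its smallest p of 0.333. Of 49 members tested, 23 were lower in both P1 libraries and 1 was higher in both, against 29.5% and 8.15% of all tested microRNAs. The median log2 fold change was -0.54 against -0.42 for all, and limma called 0 members. With libraries centred on their median the counts were 13 lower and 6 higher, against 18.2% and 14.4% of all.

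The abundant members of the cluster differed in direction. miR-376a stood at 51051 and 37860 RPM at E18 and at 29820 and 76449 RPM at P1. miR-127, which lies antisense to the imprinted gene Rtl1, stood at 21266 and 21555 RPM at E18 and at 16451 and 33412 RPM at P1. In both, P1 replicate A was below the E18 values and replicate B above them.

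miR-136 showed the opposite order, at 24590 and 17977 RPM at E18 and at 29220 and 5684 RPM at P1. miR-369 stood at 24902 and 17793 RPM at E18 and at 22265 and 9447 RPM at P1. miR-376b, whose P1 libraries were close to each other, stood at 18973 and 19952 RPM at E18 and at 12025 and 11165 RPM at P1, lower in both with a log2 fold change of -0.75 (SE 0.52). It is named here after its values were seen.

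Along the chromosome, RefSeq placed 52 of the 53 hairpins. Of the 16 placed before miR-379, 14 were tested, 6 were lower in both P1 libraries and 1, miR-1188, was higher in both. Of the 36 from miR-379 to miR-410, 34 were tested and 17 were lower in both, with none higher, where 29.5% and 8.15% of all tested microRNAs were. The latter summed to 19.4% and 16.4% of reads other than miR-122 at E18 and to 14.1% and 14.0% at P1. This division was chosen after the values were seen and was given no test.

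**Figure D4:**
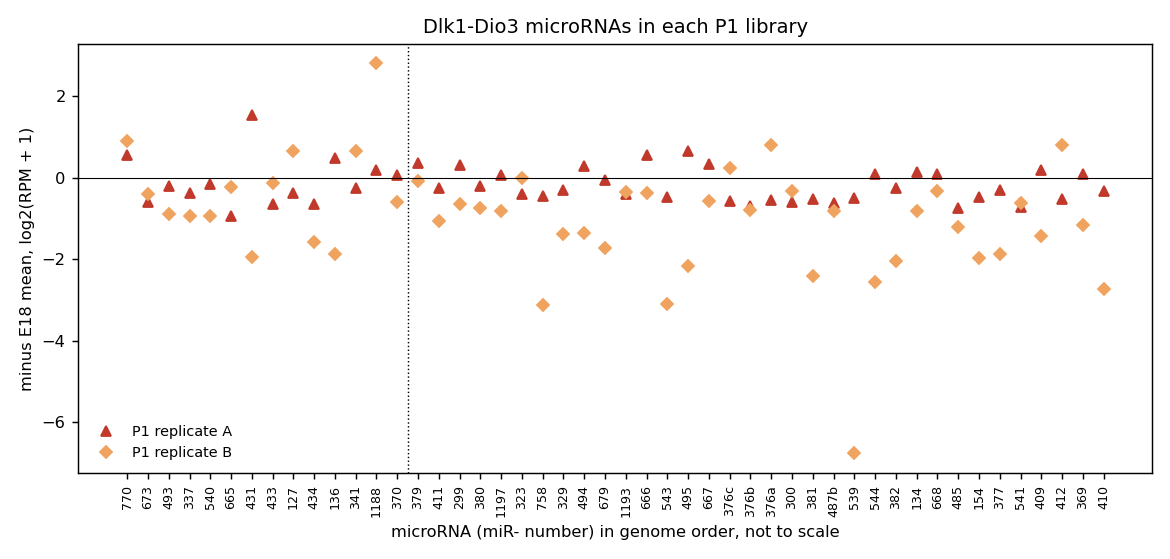
Difference of each P1 library from the E18 mean, in log2(RPM + 1), for the tested Dlk1-Dio3 microRNAs in genome order (horizontal axis, not to scale), with the dotted line before miR-379. P1 replicate A (triangles) lies nearer to 0 than replicate B (diamonds) for 38 of the 48 microRNAs, with medians from miR-379 to miR-410 of -0.31 and -0.94.

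The other imprinted locus, Igf2-H19, holds miR-483 within Igf2 and miR-675 within H19. The 2 hairpins summed to 0.594% and 0.544% at E18 and 0.397% and 0.932% at P1. miR-483 stood at 5697 and 5160 RPM at E18 and at 3577 and 9079 RPM at P1, with the P1 libraries on either side of the E18 values. miR-675 stood at 247 and 279 RPM at E18 and at 389 and 245 RPM at P1. Their sum was a little higher at P1 on the log2 scale (0.10) and lower when taken over all reads (-0.60).

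The erythroid microRNAs, made in developing red cells, stayed abundant across birth. miR-451, miR-144 and miR-486 together made up 16.4% and 7.59% of reads other than miR-122 at E18 and 12.6% and 18.3% at P1, with overlapping stages and an exact permutation p of 0.667. miR-451 stood at 111254 and 49314 RPM at E18 and at 92510 and 39288 RPM at P1. miR-144, which shares its transcript with miR-451, stood at 47415 and 21153 RPM at E18 and at 31600 and 128346 RPM at P1. miR-486 stood at 5412 and 5435 RPM at E18 and at 1772 and 14900 RPM at P1.

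P1 replicate B stood apart in the ratio of the clustered pair. miR-144 reached 0.426 and 0.429 of the level of miR-451 in the E18 libraries and 0.342 in P1 replicate A, but 3.27 in P1 replicate B. In the other 13 wild-type libraries the ratio ran from 0.0253 to 0.586.

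The 10 leukocyte hairpins, none of which passed the test, summed to 4.77% and 4.86% of reads other than miR-122 at E18 and to 4.61% and 2.18% at P1. The log2 difference of the sums was -0.60, and without P1 replicate B it was -0.063. Of the 10, 7 were lower in both P1 libraries, against 29.5% of all tested, and 4 were with libraries centred on their median, against 18.2%, where 1 was higher in both, against 14.4%. miR-223, a myeloid microRNA, stood at 14069 and 18122 RPM at E18 and at 9817 and 4322 RPM at P1, with a log2 fold change of -1.29 (SE 0.61). miR-181a-1, expressed in lymphoid cells, stood at 2562 and 3721 RPM at E18 and at 1425 and 2236 RPM at P1, and its copy miR-181a-2 at 2527 and 3503 RPM against 1302 and 2304 RPM.

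miR-181b-2 was the member with an unadjusted p under 0.05, at 1045 and 1047 RPM at E18 and 478 and 423 RPM at P1. Its log2 fold change was -1.22 (SE 0.51). miR-142, found across blood cells, did not share the pattern, at 25513 and 20339 RPM at E18 and 30979 and 11478 RPM at P1. miR-181b-2 is named after its values were seen.

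Hepatocyte microRNAs other than miR-122 split between the P1 libraries. The 9 hairpins summed to 4.47% and 4.94% at E18, with P1 replicate A above at 7.02% and replicate B below at 3.33%. P1 replicate A was above both E18 libraries for 6 of 9 members, against 33.5% of all tested. Replicate B was below both for all 9, against 67.7%. miR-101b stood at 12620 and 13247 RPM at E18 and at 36052 and 10047 RPM at P1. miR-192 went the other way in replicate A, at 19372 and 21149 RPM at E18 and at 5492 and 18621 RPM at P1.

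The paired hairpins of miR-194 followed miR-101b. miR-194-2 stood at 5206 and 6720 RPM at E18 and at 10946 and 1554 RPM at P1, and miR-194-1 at 2001 and 2839 RPM against 4943 and 832 RPM. The sum of the list was nearly level on the log2 scale (0.04) and lower at P1 when taken over all reads (-0.66).

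The remaining cell type lists were small or overlapped. The endothelial miR-126 stood at 24652 and 35194 RPM at E18 and at 26231 and 27210 RPM at P1, with both P1 libraries between the E18 values. The mesenchymal and stellate list summed to 0.962% and 1.25% at E18 and to 1.64% and 0.56% at P1. It was led by miR-143 of smooth muscle, at 4341 and 7101 RPM against 8773 and 3572 RPM, and its neighbour miR-145, at 1774 and 1153 RPM against 2566 and 627 RPM. The fibroblast microRNAs miR-199a-1 and miR-199a-2 likewise ran from 1007 and 1238 RPM to 1332 and 355 RPM, and from 950 and 1166 RPM to 1586 and 259 RPM.

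The biliary and epithelial miR-200 list summed to 0.505% and 0.569% at E18 and to 0.495% and 0.390% at P1. Its stages did not overlap, with the exact permutation test at its smallest p of 0.333. miR-200a stood at 2496 and 2484 RPM at E18 and at 2110 and 1295 RPM at P1, and miR-429 at 839 and 787 RPM against 693 and 327 RPM. miR-200b stood at 1613 and 2213 RPM against 2059 and 2167 RPM and miR-200c at 79.6 and 177 RPM against 54.9 and 109 RPM, with overlapping stages. The islet miR-375 stood at 203 and 486.8 RPM at E18 and at 178 and 654.4 RPM at P1.

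Markers of other tissues were at low levels. The exocrine miR-216a, miR-216b and miR-217 stayed at or below 38.1 RPM in the 4 libraries. The neuronal miR-9-1, miR-9-2, miR-9-3 and miR-124-2 were at or below 27.2 RPM. Of the embryonic stem cell list, miR-290 stood at 41.9 and 47.7 RPM at E18 and at 25.4 RPM and 0 at P1, and miR-294 at 15.5 and 21.6 RPM against 105.8 RPM and 0, while miR-291a and miR-292 were at or below 21.2 RPM. A value of 0 in P1 replicate B allows a level of up to 40.9 RPM.

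**Figure D5:**
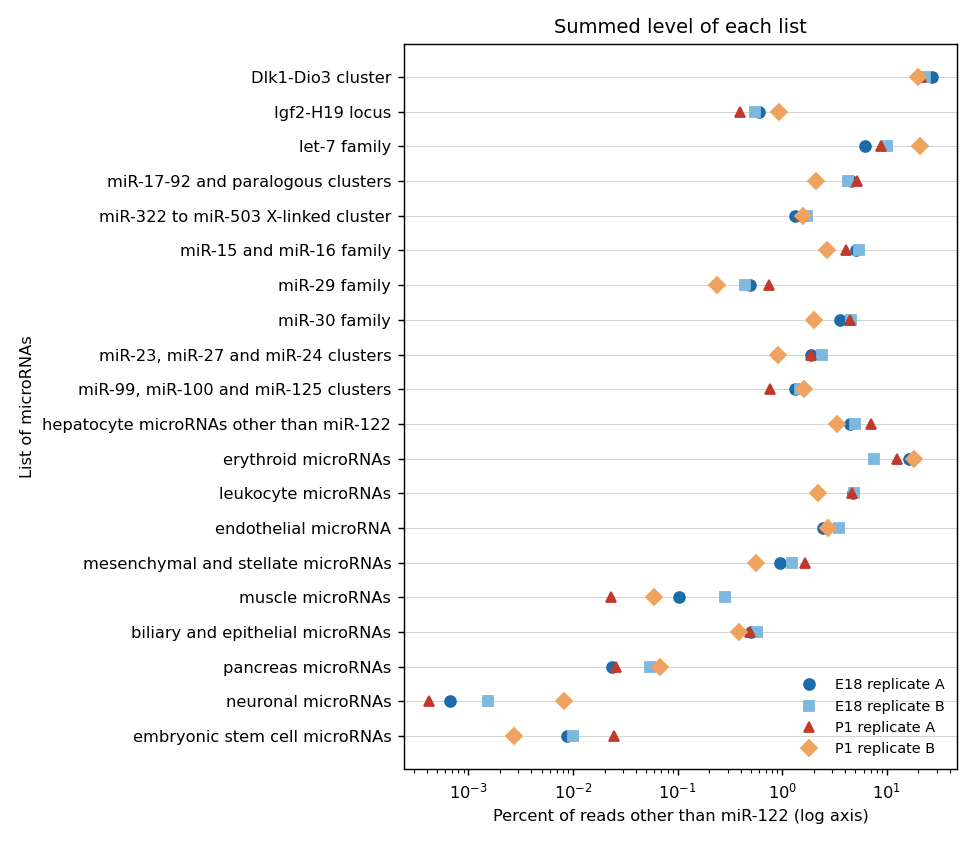
Sum of each of 20 lists of microRNAs, as a percent of reads other than miR-122 on a log axis, in each of the 4 libraries. The 2 P1 libraries (triangle and diamond) lie on opposite sides of the E18 libraries in several lists, such as the hepatocyte list at 7.02% and 3.33%.

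The proliferation-linked miR-17-92 cluster and its paralogs split between the P1 libraries. Their 15 hairpins summed to 4.55% and 4.22% of reads other than miR-122 at E18 and to 5.20% and 2.13% at P1. All 14 tested members had a negative log2 fold change, and 7 were lower in both P1 libraries, against 29.5% of all tested microRNAs, of which 96 of 319 were positive. With libraries centred on their median 1 of the 14 was lower in both, against 18.2% of all, and 2 were positive. Replicate B was below both E18 libraries for all 14 members, against 67.7% of all tested. Replicate A was above both for 6 and below both for 7, against 33.5% and 40.4%.

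miR-17 stood at 6589 and 6192 RPM at E18 and at 3717 and 5235 RPM at P1. miR-92a-1 stood at 5971 and 5965 RPM at E18 and at 4913 and 4076 RPM at P1, and miR-93 at 4908 and 4329 RPM against 3873 and 2917 RPM. These were lower in both P1 libraries, whereas miR-20a, at 7983 and 5781 RPM against 8634 and 2140 RPM, was not.

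The miR-15 and miR-16 family, which restrains cell cycle genes, was lower in sum in both P1 libraries. It made up 5.10% and 5.39% at E18 and 4.06% and 2.68% at P1, with the exact permutation test at its smallest p of 0.333. miR-15b stood at 17948 and 22481 RPM at E18 and at 12299 and 15949 RPM at P1. miR-16-2 stood at 13912 and 13074 RPM at E18 and at 11124 and 4690 RPM at P1, and its copy miR-16-1 was near-equal at 13612, 12986, 11259 and 4444 RPM. miR-15a overlapped, at 5304 and 5039 RPM against 5606 and 1609 RPM.

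In the miR-23, miR-27 and miR-24 clusters, 2 of 6 members were lower in both P1 libraries, against 29.5% of all tested, and with libraries centred on their median 2 were lower and 2 higher in both, against 18.2% and 14.4%. miR-23a stood at 6907 and 7220 RPM at E18 and at 4541 and 1963 RPM at P1, a log2 fold change of -1.24 (SE 0.67), and miR-23b at 5235 and 5541 RPM against 3218 and 1799 RPM. miR-27b, at 3727 and 5337 RPM against 3974 and 2536 RPM, and miR-27a, at 1513 and 2360 RPM against 2013 and 627 RPM, overlapped. The miR-24 hairpins had positive log2 fold changes, with miR-24-1 at 835 and 1765 RPM against 2723 and 1186 RPM (0.57, SE 0.76) and miR-24-2 alike (0.41, SE 0.74), and are named after their values were seen.

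In the miR-99, miR-100 and miR-125 clusters, P1 replicate A was below both E18 libraries for all 6 members and replicate B for 3, against 40.4% and 67.7% of all tested. miR-125a stood at 5147 and 4926 RPM at E18 and at 2824 and 3817 RPM at P1. miR-125b-2 stood at 2233 and 3202 RPM against 956 and 1936 RPM and miR-125b-1 at 2264 and 3029 RPM against 951 and 1977 RPM. miR-99a differed from these, at 2116 and 2179 RPM against 1903 and 5766 RPM.

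The miR-29 and miR-30 families were divided between the P1 libraries. miR-29a, which targets collagens, stood at 2187 and 1913 RPM at E18 and at 2334 and 1350 RPM at P1. miR-29c stood at 910 and 1093 RPM against 930 and 450 RPM. miR-29b-1 and miR-29b-2, from separate hairpins with the same mature RNA, stood at 727 and 645 RPM against 1848 and 355 RPM and at 1080 and 718 RPM against 2330 and 232 RPM.

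miR-30a stood at 9890 and 14907 RPM at E18 and at 11251 and 8616 RPM at P1. Among its relatives, miR-30b and both miR-30c hairpins were above the E18 values in P1 replicate A and below them in replicate B. miR-30c-2 stood at 6435 and 6603 RPM against 9272 and 1881 RPM, miR-30c-1 at 6320 and 6625 RPM against 8862 and 1595 RPM, and miR-30b at 5379 and 5859 RPM against 7970 and 1295 RPM.

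The X-linked cluster from miR-322 to miR-503, whose members act in muscle and cell cycle control, was level in sum at 1.31% and 1.73% at E18 and 1.54% and 1.58% at P1. miR-503 was higher in both P1 libraries, at 1685 and 2332 RPM against 3091 and 2890 RPM, but its log2 fold change of 0.59 (SE 0.54) became -0.10 over all reads. miR-322 stood at 4712 and 5997 RPM against 4795 and 3790 RPM, miR-351 at 2452 and 2882 RPM against 2000 and 7062 RPM, and miR-450a-2 at 1738 and 2438 RPM against 2097 and 695 RPM.

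Among other abundant or stress-linked microRNAs, the stages overlapped. miR-21, one of the most abundant, stood at 31709 and 53779 RPM at E18 and at 67002 and 20434 RPM at P1. miR-335, which lies in the imprinted gene Mest, stood at 18663 and 27293 RPM against 15386 and 31367 RPM. The hypoxia-induced miR-210 stood at 1283 and 2800 RPM against 2964 and 1622 RPM, and the p53-induced miR-34a at 239 and 142.9 RPM against 554 and 41.0 RPM.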

How the data were processed

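The authors ligated adapters to size-selected small RNA, sequenced it, used Bowtie 0.12.7 to match them to mouse microRNAs and deposited RPM with 1 added to every value. The deposited FPKM table of other livers was not used here. The added 1 was subtracted. Low values were whole multiples (tolerance 0.1) of the worth of 1 read, which gave the read totals, and levels were rescaled to reads other than miR-122. How the authors counted reads matching several hairpins is not given in the sources used here. Ligation favours some sequences, so an order of levels between microRNAs is one of reads and not of molecules.

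limma 3.58.1 in R 4.3.3 modelled log2(RPM + 1) with 1 mean per stage and a trended variance prior. The E18, P1 and P8 libraries shared the fit, and microRNAs averaging under 10 RPM were left out, with Benjamini-Hochberg adjustment and a threshold of 0.05. Fold changes are on that scale, which can understate changes of low values and overstate them where a P1 library holds 0 or 1 read. Tested on simulated data, the fit recovered large changes only. Sums were compared by exact two-sided permutation. The deviations of replicate B from A correlated across E18, P1 and P8 (r of 0.14, 0.19 and 0.46), and with E14 and P270 the 10 pairs of stages ran from 0.13 to 0.50, so the letters were also fitted as pairs. The exchanged P1 letters in the other listing of the study leave this pairing in doubt.

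The members and the 20 lists were chosen with earlier results of these data known. The microRNAs named are, with a mean of at least 100 RPM at a stage and no overlap of the stages, the 10 largest differences each way, up to 4 members of highest level of each list, the 10 most abundant, and miR-122, miR-21, miR-127, miR-376a, miR-483, miR-675, miR-210 and miR-34a. miR-133b, miR-221, miR-1188, let-7c, miR-376b, miR-181b-2 and the miR-24 hairpins were added after their values were seen. Alternatives covered scaling, pseudocount, filter, samples, pairing and leaving out each library. Counts for single P1 libraries and list counts under other scalings were added after seeing the data. Python 3.11.15, pandas 2.3.3, scipy 1.17.1 and matplotlib 3.10.9 were used.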

Additional observations from a re-analysis of the deposited data

How the results depend on the processing

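limma with Benjamini-Hochberg adjustment called 0 microRNAs under every alternative run, with unadjusted p under 0.05 for 8 of 319 in the reported fit and for 2 to 61 under the alternatives. The 61 came without P1 replicate A (smallest adjusted p 0.135) and 11 without P1 replicate B. With a library left out, the stage has 1 library, which is assumed to vary like the other stages. With the letters A and B as a replicate block the count stayed at 0, with 18 unadjusted and a smallest adjusted p of 0.306, and pairing changed no other call. The 2 planned count models were not run on the reads recovered here. The depth of P1 replicate B limits what can be seen at low levels.

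The log2 ratio of the miR-122 share, 0.73, became 1.59 per other read and ran from 0.32 to 1.07 with a library left out. Log2 fold changes that turned over were, on scaling to all reads, miR-376a -0.58, miR-127 -0.57, miR-483 -0.62, miR-675 -0.46, let-7g -0.49, miR-351 -0.20, miR-503 -0.10, miR-29b-1 -0.45, miR-99a -0.071, miR-101b -0.14, miR-143 -0.68, miR-200b -0.53, miR-375 -0.58 and miR-210 -0.49. With libraries centred on their median they were miR-322 0.079, miR-29a 0.19, miR-29b-2 0.14, miR-30a 0.095, miR-194-1 0.16, miR-451 0.10, miR-486 0.32, miR-142 0.12, miR-126 0.26, miR-145 0.22, miR-21 0.24, miR-34a 0.11 and miR-335 0.36, and with a pseudocount of 10 RPM miR-294 at 0.26. List sums that turned over on scaling to all reads were Igf2-H19 locus -0.60, miR-322 to miR-503 X-linked cluster -0.65, hepatocyte other than miR-122 -0.66, erythroid -0.25 and pancreas -0.48.

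With 1 library left out at a time, the log2 differences whose sign turned ran as follows for list sums: miR-322 to miR-503 X-linked cluster -0.15 to 0.25, hepatocyte other than miR-122 -0.50 to 0.58, pancreas -0.48 to 0.92, erythroid -0.11 to 1.00, endothelial -0.40 to 0.12, miR-99, miR-100 and miR-125 clusters -0.87 to 0.20, Igf2-H19 locus -0.52 to 0.71, miR-17-92 -1.04 to 0.25, miR-29 family -0.96 to 0.69, miR-30 family -1.01 to 0.16, mesenchymal and stellate -0.97 to 0.58, neuronal -1.25 to 3.04 and embryonic stem cell -1.77 to 1.39. For single microRNAs they ran miR-376a -0.56 to 0.80, miR-127 -0.38 to 0.64, miR-136 -1.89 to 0.47, miR-369 -1.16 to 0.081, miR-483 -0.60 to 0.74, miR-675 -0.098 to 0.56, miR-20a -1.67 to 0.35, miR-351 -0.41 to 1.41, miR-450a-2 -1.56 to 0.027, miR-15a -1.68 to 0.12, miR-29a -0.60 to 0.19, miR-29b-2 -1.92 to 1.40, miR-29b-1 -0.95 to 1.43, miR-30c-2 -1.79 to 0.51, miR-30c-1 -2.02 to 0.45, miR-30b -2.12 to 0.51, miR-27a -1.59 to 0.091, miR-99a -0.17 to 1.42, miR-101b -0.36 to 1.48, miR-194-2 -1.93 to 0.89, miR-194-1 -1.52 to 1.05, miR-451 -0.91 to 0.32, miR-144 -0.0032 to 2.02, miR-486 -1.61 to 1.46, miR-142 -0.99 to 0.44, miR-126 -0.40 to 0.12, miR-143 -0.64 to 0.66, miR-145 -1.19 to 0.84, miR-199a-2 -2.02 to 0.59, miR-199a-1 -1.65 to 0.25, miR-200b -0.067 to 0.39, miR-375 -0.82 to 1.05, miR-216a -4.49 to 0.24, miR-294 -4.27 to 2.47, miR-21 -1.01 to 0.70, miR-210 -0.35 to 0.77, miR-34a -2.15 to 1.58 and miR-335 -0.55 to 0.47. Others kept their sign over wide ranges: let-7 sum 0.15 to 1.39, miR-15 and miR-16 sum -0.97 to -0.37, miR-23, miR-27 and miR-24 sum -1.23 to -0.17, leukocyte sum -1.14 to -0.063, muscle sum -2.93 to -1.46, Dlk1-Dio3 sum -0.41 to -0.19, miR-222 1.73 to 3.93, miR-185 0.81 to 2.84, let-7f-2 0.48 to 1.83, miR-706 -4.35 to -2.48 and miR-1198 -3.31 to -1.82. The same held for miR-223 at -1.89 to -0.70, miR-23a at -1.85 to -0.64 and let-7g at 0.022 to 0.39. The cause was not tested.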
